A study of Mus musculus with 4 samples.

Results

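Hepatokines are proteins that the liver releases into the blood and that act on other tissues. The 8 genes described here were taken by symbol: the hormones Fgf21 and Gdf15, the FGF21 co-receptor Klb, the activin subunits Inhbe and Inhba, and the plasma proteins Lect2, Ahsg and Fetub. Each of the 8 was represented by 1 gene probe with 1 spot per array, out of 39429 gene probes for 30431 genes or transcripts, and all 8 probes were well above background on all 4 arrays. FGF21 signals through an FGF receptor joined to beta-Klotho, the product of Klb, and its liver transcript is known to respond to fasting through PPARalpha, to sugar through ChREBP and to amino acid or mitochondrial stress through ATF4. GDF15 is a stress hormone of the TGF-beta superfamily whose receptor, GFRAL with RET, lies in the hindbrain. Inhbe and Inhba encode subunits of activins, dimers of the same superfamily that follistatin binds and blocks, and the fetuins and LECT2 are made mainly by hepatocytes.

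The experiment asked how loss of Drp1, the dynamin-related GTPase that divides mitochondria, changes liver transcripts in male C57BL/6J mice kept on a high-fat diet (HFD), for 24 weeks in the labels. Liver RNA was hybridized to 4 one-colour arrays, so that each genotype was read once per feeding state. Drp1LiKO mice carried Alb-Cre Tg/+ with Drp1 flox/flox, so that recombination is driven by the albumin promoter in hepatocytes, while the other cells of the liver keep the gene. Control mice (Cont, named wild type in the labels) carried Drp1 flox/flox without the Cre and were littermates, so both genotypes shared the floxed allele and the diet, which began at 4 weeks of age in the methods. The refed livers came from mice fasted for 17 h and given food again for 4 h. The labels of the other pair name no feeding state and give the arrays as raw data shared with an earlier submission. They are called fasted here from the paper's account, although the series text has the mice refed after the fast. Whether a liver was 1 animal or a pool was not stated in the sources used here.

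With 1 array per group there was no spread between animals, and no test within a feeding state was possible. A difference is therefore given with the SE of the scanner's error model, which covers the measurement alone. For probes as bright as these it was close to 0.14 for a level and 0.20 for a difference on the log2 scale. The level of a gene is its log2 signal relative to the 75th percentile (P75) of the gene spots of its array. That percentile was 461 and 722 on the fasted Cont and Drp1LiKO arrays and 357 and 526 on the refed ones, and between 48.7% and 58.2% of gene spots were well above background. A gene was called different at 2-fold or more where the brighter signal was well above background. Over the 14442 genes that were well above background throughout, the median genotype difference was -0.12 in the fasted and -0.08 in the refed pair on this scale, and -0.01 in both after quantile normalization. The Dnm1l probe, for the gene of Drp1, differed by -0.21 (SE 0.20) in the fasted and -0.12 (SE 0.20) in the refed pair. Whether it lies in the deleted part of the gene is not known here, so it does not check the labels. In bulk liver, fewer cells of a type and less RNA per cell cannot be told apart.

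The values of the 4 members that passed the 2-fold rule in at least 1 comparison rest on probes of 60 bases, of which the last 30 are shown because they fix what each probe reads. Coordinates are those of mm9 in the scanner files. Capitals mark the letters AATAAA, the usual polyadenylation signal, and ATTTA, a motif of unstable messages.
Fgf21, chr7:52869305-52869334, minus strand: ATTTAtcttATTTATTTAttttagtttttt
Gdf15, chr8:73153293-73153322, minus strand: actctgctAATAAAggtgagcttggtttct
Inhbe, chr10:126786719-126786748, minus strand: gtgacatacattttatattttcttAATAAA
Inhba, chr13:16118664-16118693, plus strand: tcagcttcaaggacattggctggaatgact
The whole Fgf21 probe held ATTTA 4 times and was 80.0% A or T, and the whole Gdf15 probe held it 2 times. AATAAA stood once in the Gdf15 and once in the Inhbe probe, and neither motif was found in the Inhba probe. A genome of that build was not used here, so the exon of each probe is not given.

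The upstream sequence is shown for the hormones and for Inhbe because their signals are set beside stress-response and feeding genes further on. The windows hold the 250 bases before a RefSeq start in GRCm38.p6. Capitals mark TGATGCAA, a composite C/EBP-ATF site of the kind ATF4 binds, read on either strand, and the E-box CACGTG.
Fgf21, chr7:45615491-45615740, minus strand: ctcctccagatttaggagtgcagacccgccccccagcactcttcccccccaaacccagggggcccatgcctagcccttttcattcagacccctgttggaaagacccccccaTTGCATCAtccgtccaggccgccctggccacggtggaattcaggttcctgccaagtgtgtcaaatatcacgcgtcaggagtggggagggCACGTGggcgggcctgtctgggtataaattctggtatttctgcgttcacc
Gdf15, chr8:70632457-70632706, minus strand: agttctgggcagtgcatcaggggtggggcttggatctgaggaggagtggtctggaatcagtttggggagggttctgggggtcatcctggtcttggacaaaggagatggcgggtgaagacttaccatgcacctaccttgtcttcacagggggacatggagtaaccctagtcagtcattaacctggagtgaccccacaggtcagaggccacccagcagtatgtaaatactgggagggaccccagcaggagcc
Inhbe, chr10:127351849-127352098, minus strand: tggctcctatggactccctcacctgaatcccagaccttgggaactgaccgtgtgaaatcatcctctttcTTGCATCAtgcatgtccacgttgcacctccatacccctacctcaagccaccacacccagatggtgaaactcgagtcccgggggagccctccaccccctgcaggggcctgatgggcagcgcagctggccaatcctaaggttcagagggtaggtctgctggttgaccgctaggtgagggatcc
TGATGCAA occurred, as its reverse complement, 139 bases before the Fgf21 start and 181 bases before the Inhbe start, and in 0.791% of all 32851 windows of this length. CACGTG occurred 50 bases before the Fgf21 start and in 6.02% of all windows. The Gdf15 window shown held neither. A second Gdf15 start, downstream of the one shown, had CACGTG 83 bases before it. Neither motif was found in the windows of Klb, Inhba, Lect2, Ahsg and Fetub. The CRE letters TGACGTCA, found in 1.55% of windows, and the hexamer AGGTCA repeated 1 base apart, found in 0.0335%, were in no member's window. The shorter TGATG, which the C/EBP-ATF letters contain, stood in 34.5% of all windows and 2 times in the Inhbe window, once each in those of Fgf21, Lect2 and Ahsg, and once in 1 of the windows of Gdf15 and of Fetub. All motifs were searched on both strands, and a match describes letters, not a bound site.

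Fgf21 had the widest range of the 8 genes. In fasted livers its signal was 1550 for Cont and 14600 for Drp1LiKO, and in refed livers 3350 and 3110. Relative to P75 these were log2 levels of 1.75, 4.33, 3.23 and 2.56. From lowest to highest the order was fasted Cont, refed Drp1LiKO, refed Cont and fasted Drp1LiKO, and each neighbour in that order was apart by more than 2 SE of the scanner's model. In the fasted pair Fgf21 was 5.98-fold higher in Drp1LiKO, a log2 difference of 2.58 (SE 0.20), and 272 of 17673 genes had a larger positive difference. In the refed pair it was 1.59-fold lower in Drp1LiKO, with a log2 difference of -0.67 (SE 0.20), under the 2-fold rule. Between feeding states the signal was 2.78-fold higher in the refed than in the fasted Cont liver (1.47, SE 0.20) and 3.41-fold lower in the refed than in the fasted Drp1LiKO liver (-1.77, SE 0.20). The genotypes thus had opposite signs for refeeding. The refed minus the fasted genotype difference was -3.25 (SE 0.29), and 0.0415% of 14442 genes had a lower value.

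Klb, which encodes the protein that lets FGF21 bind its receptor, had signals of 938 and 1070 in the fasted and 472 and 615 in the refed Cont and Drp1LiKO livers. Its levels were 1.03 and 0.56 after fasting and 0.40 and 0.23 after refeeding, highest in fasted Cont. The last 3 lay close together, each neighbour within 2 SE. The genotype difference was -0.46 (SE 0.20) in the fasted and -0.18 (SE 0.21) in the refed pair, and the refeeding difference was -0.62 (SE 0.21) in Cont and -0.34 (SE 0.20) in Drp1LiKO. None reached 2-fold, and in each the sign was negative.

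Gdf15 was high on 1 array. In fasted livers its signal was 2850 for Cont and 10500 for Drp1LiKO, and in refed livers 1920 and 3440. The levels were 2.63, 3.87, 2.43 and 2.71 in that order, so that the fasted Drp1LiKO array stood above 3 arrays whose neighbours lay within 2 SE of each other. The fasted Drp1LiKO liver had 2.36-fold more signal than the fasted Cont liver, a log2 difference of 1.24 (SE 0.20). In the refed pair the difference was 0.28 (SE 0.20). Refeeding was accompanied by a difference of -0.20 (SE 0.20) in Cont and by 2.23-fold lower signal in Drp1LiKO (-1.16, SE 0.20). The difference between the genotype differences was -0.96 (SE 0.29), with 2.58% of genes lower. For Fgf21 and Gdf15 alike, the genotype difference after fasting and the refeeding difference in Drp1LiKO share the fasted Drp1LiKO array and are not independent.

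**Figure D1:**
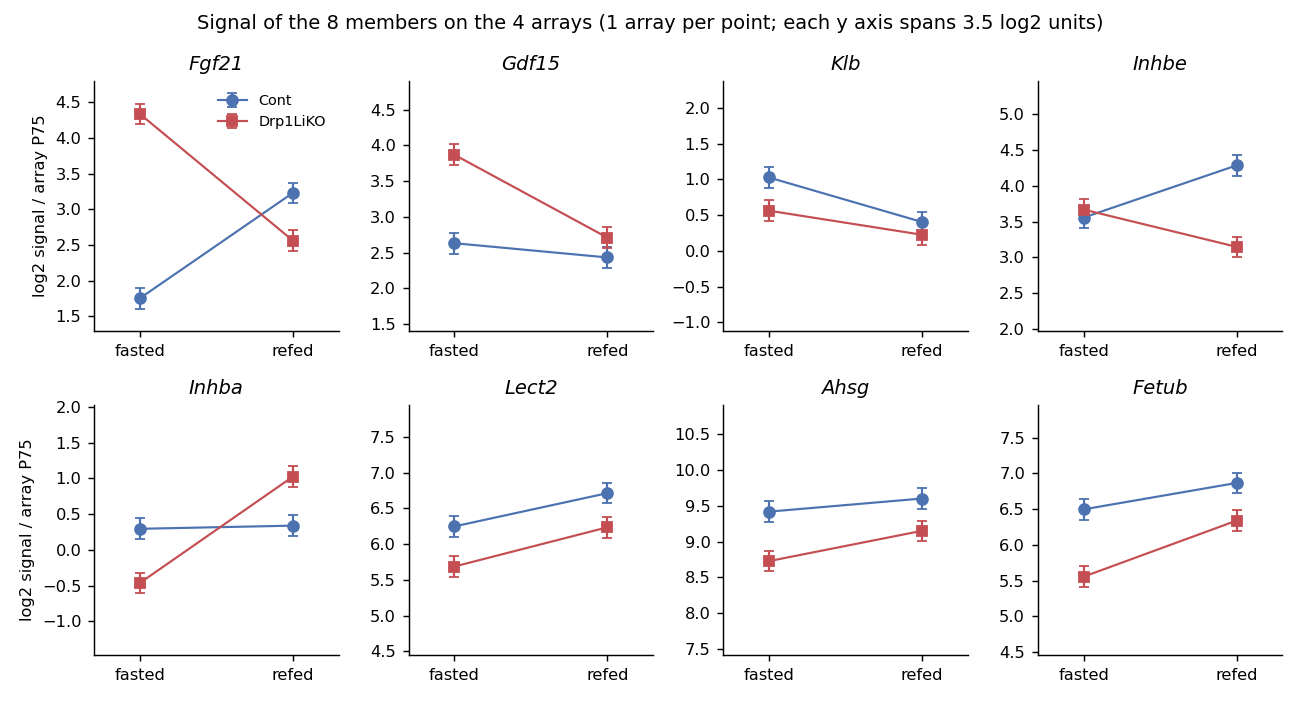
Log2 signal relative to the 75th percentile of the array (y axis, every panel spanning the same number of log2 units) for the 8 genes in the fasted and refed livers (x axis), with Cont as blue circles and Drp1LiKO as red squares, 1 array per point and bars of 1 SE of the scanner's error model. The Fgf21, Inhba and Inhbe lines cross between the feeding states, those of Inhbe from levels within 1 SE after fasting. Gdf15 stands high on the fasted Drp1LiKO array at 3.87, and Lect2, Ahsg and Fetub run lower in Drp1LiKO at both states.

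Inhbe encodes the subunit of activin E, which is made by hepatocytes. Its signal was 5420 and 9180 in the fasted and 6960 and 4650 in the refed Cont and Drp1LiKO livers. The levels were 3.56 and 3.67 after fasting, closer than 1 SE, and 4.29 and 3.15 after refeeding. Refed Cont was therefore the highest and refed Drp1LiKO the lowest of the 4. The refed Drp1LiKO liver had 2.20-fold less Inhbe signal than the refed Cont liver (-1.14, SE 0.20), and the fasted pair differed by 0.11 (SE 0.20). The refeeding difference was 0.73 (SE 0.20) in Cont and -0.52 (SE 0.20) in Drp1LiKO, of opposite sign and each under 2-fold. The call in the refed pair ended under quantile normalization and in the authors' normalized values, where the difference was -0.98 in both.

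Inhba encodes the subunit of activin A, a regulator of growth and fibrosis. Its signal was 565 and 524 in the fasted and 452 and 1070 in the refed Cont and Drp1LiKO livers, or 0.30, -0.46, 0.34 and 1.02 as log2 levels. The Cont arrays hardly differed, and the Drp1LiKO arrays were the lowest after fasting and the highest after refeeding. The genotype difference was -0.76 (SE 0.21) in the fasted pair and 0.69 (SE 0.21) in the refed pair, neither at 2-fold. The refeeding difference was 0.04 (SE 0.21) in Cont, and in Drp1LiKO the signal was 2.80-fold higher after refeeding (1.49, SE 0.20). The refed minus the fasted genotype difference was 1.44 (SE 0.29), with 0.692% of genes higher, and for Inhbe it was -1.25 (SE 0.29), with 1.35% of genes lower.

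Inhba is also expressed by cells other than hepatocytes, so markers of those cells are given beside it. The 9 stellate cell and fibroblast markers summed to 47.3 and 68.9 times P75 in the fasted and 53.5 and 60.8 times in the refed Cont and Drp1LiKO livers, with a median genotype difference of 0.81 and 0.02, and Des was not well above background on 1 array. Dcn, at log2 levels of 5.48 and 5.98 after fasting and 5.64 and 5.84 after refeeding, made up most of each sum. The collagen gene Col1a1 had the largest fasted difference of the list, 1.67 (SE 0.23), and differed by -0.02 (SE 0.22) in the refed pair. In the fasted pair 7 of the markers were higher in Drp1LiKO and 2 lower, Reln (-0.74) and Des (-0.08). The fasted Drp1LiKO array was the highest for this list by sum and by median level, and the lowest for Inhba. The 8 Kupffer cell and macrophage markers summed to 90.1, 93.6, 93.1 and 145 times P75 in the same order, all 8 detected on every array, highest on the refed Drp1LiKO array as Inhba was. Their part in the Inhba values was not tested.

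Lect2, Ahsg and Fetub had genotype differences under 2-fold, all negative on the P75 scale. LECT2 was first described as a chemotactic factor for neutrophils, fetuin-A (Ahsg) binds calcium phosphate and can inhibit the insulin receptor kinase, and fetuin-B (Fetub) inhibits the protease ovastacin. Lect2 had levels of 6.25 and 5.69 after fasting and 6.71 and 6.24 after refeeding, with genotype differences of -0.56 (SE 0.20) and -0.48 (SE 0.20). Ahsg had levels of 9.42 and 8.73 after fasting and 9.60 and 9.15 after refeeding, with genotype differences of -0.69 (SE 0.20) and -0.45 (SE 0.20). Fetub had levels of 6.50 and 5.55 after fasting and 6.87 and 6.34 after refeeding, with genotype differences of -0.94 (SE 0.20) and -0.53 (SE 0.20). For each of the 3 the fasted Drp1LiKO array was the lowest and the refed Cont array the highest. On this scale the refeeding differences lay between 0.18 and 0.47 in Cont and between 0.42 and 0.78 in Drp1LiKO, and after quantile normalization they were -0.09 and 0.09 for Ahsg, 0.05 and 0.30 for Fetub, and 0.18 and 0.07 for Lect2.

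None of the 3 reached 2-fold, and their differences depended on the scaling. Before scaling, the Ahsg signal was 316000 and 306000 in the fasted and 278000 and 299000 in the refed Cont and Drp1LiKO livers. For Lect2 it was 35000, 37200, 37500 and 39700, and for Fetub 41600, 33900, 41600 and 42500. Unscaled Lect2 was thus slightly higher, not lower, in Drp1LiKO. The Drp1LiKO arrays were, however, brighter in general, with a P75 of 722 against 461 after fasting and 526 against 357 after refeeding. Under every scaling and background correction tried, Lect2 was lower in Drp1LiKO. Its difference lay between -0.62 and -0.25 in the fasted and between -0.48 and -0.35 in the refed pair. Under quantile normalization Ahsg differed by -0.09 in the fasted and by 0.09 in the refed pair, Lect2 by -0.25 and -0.35, and Fetub by -0.65 and -0.40. That method gives each rank a fixed value, and Ahsg stood at percentile 99.9 or above on every array. Its values there follow from a small change of rank at the top, so they do not measure its direction. The 8 hepatocyte markers, among them albumin (Alb), summed to 2790 and 1920 times P75 in the fasted and 3290 and 2290 times in the refed Cont and Drp1LiKO livers. Their median genotype difference was -0.55 in the fasted and -0.47 in the refed pair, with 7 of 8 lower in each. Alb itself differed by -0.52 and -0.55, and Tat, the 1 higher marker in both pairs, by 1.04 and 0.98. These marker values are on the P75 scale alone, so how far they depend on the scaling is not shown. The part of hepatocyte transcripts as a whole in the values of the 3 genes was not tested.

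**Figure D2:**
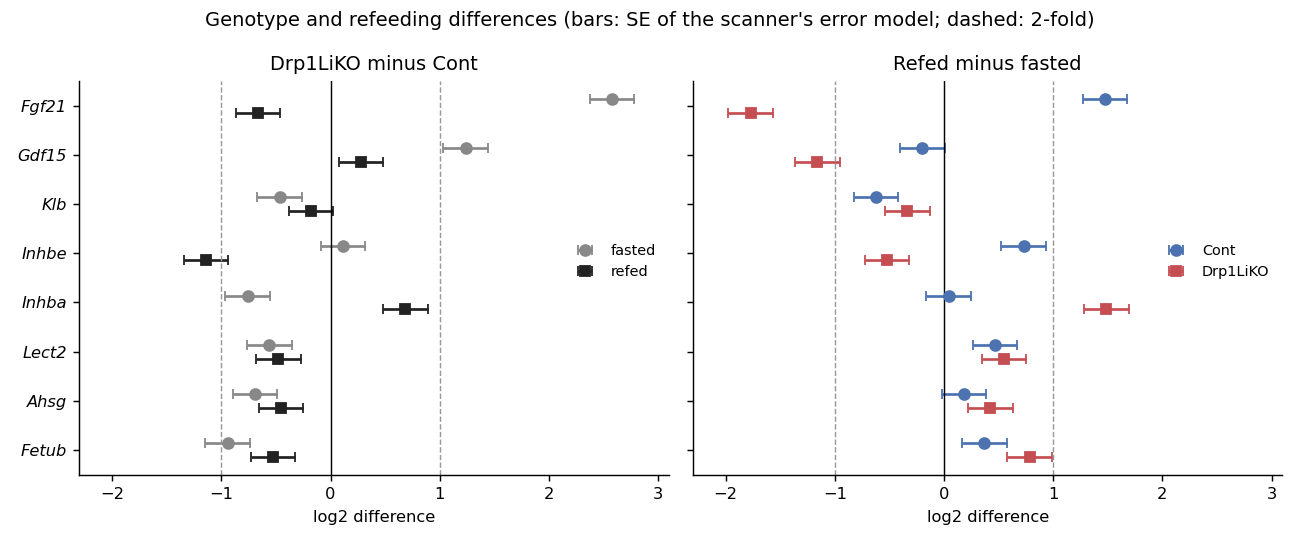
Log2 differences (x axis) of the 8 genes (y axis), at left Drp1LiKO minus Cont in the fasted (grey circles) and refed (black squares) livers, at right refed minus fasted in Cont (blue circles) and Drp1LiKO (red squares), with bars of 1 SE of the scanner's error model and dashed lines at 2-fold. Fgf21 lies past the line at 2.58 in the fasted pair and at -0.67 in the refed pair, and its refeeding differences of 1.47 and -1.77 lie on opposite sides.

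Counted over the 8 genes, 2 were at least 2-fold higher in Drp1LiKO after fasting, Fgf21 and Gdf15, beside 8.23% of 17673 genes, and 0 were at least 2-fold lower, beside 5.30%. After refeeding 0 were higher, beside 8.25% of 17014 genes, and 1 was lower, Inhbe, beside 6.50%. In Cont, 1 was higher after refeeding, Fgf21, beside 4.50% of 16326 genes, and 0 were lower, beside 5.87%. In Drp1LiKO, 1 was higher after refeeding, Inhba, beside 5.62% of 18272 genes, and 2 were lower, Fgf21 and Gdf15, beside 7.17%. A single gene of 8 is more than any of these shares, so the counts are given as a description. The median difference of the 8 genes was -0.51 in the fasted and -0.46 in the refed pair, against -0.07 and -0.03 over all genes, and it was 0.28 in Cont and 0.04 in Drp1LiKO for refeeding, against 0.09 and 0.08.

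The additive limma fit over all 4 arrays, with genotype and feeding state as terms and 1 residual degree of freedom, called 0 of the 8 genes for genotype and 0 for feeding at a Benjamini-Hochberg adjusted p under 0.05. Across all 16739 genes tested it called 0.00% for either term, with 4748 genes at an unadjusted p under 0.05 for genotype and 4415 for feeding. Of the 8 genes, 3 were under that unadjusted value for genotype and 3 for feeding. The genotype terms were -0.73 (SE 0.18, limma adjusted p = 0.127) for Fetub, -0.57 (SE 0.15, adjusted p = 0.135) for Ahsg and -0.52 (SE 0.14, adjusted p = 0.136) for Lect2. Gdf15 had 0.76 (SE 0.29, limma adjusted p = 0.205). For Fgf21 the fit takes the opposite signs of the feeding states as error, and its genotype term of 0.96 had an SE of 0.88 (limma adjusted p = 0.514). Inhba had a term of -0.04 (limma adjusted p = 0.960). For feeding, the smallest limma adjusted p among the 8 was 0.170, for Lect2 (0.51, SE 0.14). When only the 14442 genes measured on every array were tested, limma called 8.42% of genes for genotype and 0.104% for feeding. None of the 8 was among them, and the smallest limma adjusted p was 0.0605, for the genotype term of Fetub. No member passed a test on these arrays.

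By the probe used for each gene, the receptors and processing enzymes of FGF21 and GDF15 differed little. Of 13 genes, 9 were usable in the fasted and 8 in the refed pair, usable meaning that the brighter signal was well above background. Over all genes, 8.23% were at least 2-fold higher in the fasted and 8.25% in the refed pair, with 5.30% and 6.50% lower. None of the list reached 2-fold in the fasted pair and 1 was higher in the refed pair. The list medians were 0.07 and -0.11 beside -0.07 and -0.03 over all genes. That 1 was Fgfr1, the main partner of beta-Klotho, at 0.35 (SE 0.21) in the fasted and 1.37 (SE 0.21) in the refed pair. Its 3 probes disagreed, from -0.33 to 1.37 in the refed pair, so the value belongs to 1 probe. Those of Fgfr3 disagreed too, from -0.87 to 1.13 in the fasted pair, where the probe used differed by -0.03. Fgfr4, the receptor most used in hepatocytes, differed by -0.35 and -0.22. Gfral, Ret and Kl were not well above background on any array.

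Genes that follow FGF receptor signaling varied in both directions. Of 7 usable genes 3 were at least 2-fold higher in Drp1LiKO after fasting, and of 8 after refeeding 2 were higher and 1 lower, with medians of 0.18 and 0.28. The shares over all genes were 8.23% higher and 5.30% lower after fasting, and 8.25% and 6.50% after refeeding. The early transcription factor Egr1 was 5.85-fold higher after fasting (2.55, SE 0.21), where Fgf21 was also higher, and 3.21-fold higher after refeeding (1.68, SE 0.21), where Fgf21 was not. The feedback inhibitor Spry1 differed by 1.14 (SE 0.22) after fasting and by 0.28 after refeeding. By the probes used, Dusp6, Etv5 and Etv4 were under 2-fold, at 0.18, -0.17 and -0.35 after fasting. After refeeding they differed by 0.21, 0.29 and -0.65. Probes disagreed for Etv4, from -2.82 to -0.35 after fasting, and for Spred1, from -1.71 to 0.62 after refeeding. The phosphatase gene Dusp4 was not well above background in Cont, which leaves at least 4.77-fold higher signal in Drp1LiKO after fasting and at least 2.04-fold after refeeding. The bound sets the signal on the bright array against the lowest signal well above background on the dim array or the dim probe's own signal, whichever is higher. Spry2 was detected on the refed Cont array alone, at least 11.8-fold above the refed Drp1LiKO and at least 7.87-fold above the fasted Cont array. The liver receives signals through these receptors from other ligands too, and the part of Fgf21 in these values was not tested.

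In the activin pathway, the blocker follistatin (Fst) was 3.96-fold higher in Drp1LiKO after fasting (1.99, SE 0.26) and differed by 0.82 after refeeding. Inhbc, the subunit of activin C and a neighbour of Inhbe in sequence and site of expression, was lower in Drp1LiKO by 2.23-fold after refeeding (-1.16, SE 0.20), near the -1.14 of Inhbe, and differed by -0.88 after fasting. Inhbb was lower after refeeding in both genotypes, 2.91-fold in Cont (-1.54, SE 0.23) and 2.52-fold in Drp1LiKO (-1.33, SE 0.22), a pattern that none of Inhbe, Inhba and Inhbc had. Fstl3 was well above background on 1 array alone. Over the whole list, 12 genes were usable after fasting with 2 higher and 0 lower, and 11 after refeeding with 0 higher and 1 lower. Of all genes, 8.23% were higher and 5.30% lower after fasting, and 8.25% and 6.50% after refeeding. The list medians were 0.15 and -0.39, or 0.05 after fasting with Fstl3 taken as no difference. The probes used for the activin receptors and Smad genes did not reach 2-fold, and Acvr1c was detected on none of the arrays. Second probes, dimmer or less often detected than the one used, disagreed for 2 of these genes. That of Smad3 differed by -2.33 in the refed pair and by -1.39 for refeeding in Drp1LiKO, and that of Acvr1b was 2-fold higher in Drp1LiKO after fasting and differed by -1.04 for refeeding in Drp1LiKO.

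No fetuin relative reached 2-fold. The values of histidine-rich glycoprotein (Hrg), the kininogens Kng1 and Kng2, and cystatin C (Cst3) lay between -0.72 and -0.04 after fasting and between -0.52 and -0.03 after refeeding, with those of Kng2 (-0.04 and -0.03) within 1 SE of 0. Their medians were -0.42 and -0.31, beside -0.55 and -0.47 for the hepatocyte markers.

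The regulators to which Fgf21 and Gdf15 are known to respond did not share 1 pattern. Of 19 usable integrated stress response targets, 10 were at least 2-fold higher in Drp1LiKO after fasting and 10 after refeeding, with 0 lower in either. All genes had 8.23% and 8.25% higher, and 5.30% and 6.50% lower. Both list counts include Aldh1l2, not well above background in Cont, whose log2 bound was 0.09 after fasting and gave no fold after refeeding. The list medians were 1.80 and 1.59, or 0.82 and 0.90 with the genes that were not well above background in Cont taken at their bounds. Atf3 was 47.8-fold higher after fasting (5.58, SE 0.24) and 21.4-fold after refeeding (4.42, SE 0.21), and Nupr1 37.0-fold and 22.8-fold. For Psat1, a serine synthesis enzyme, the probe used was at least 20.3-fold higher after fasting and 16.5-fold higher after refeeding. Its 2 probes disagreed in size, with log2 differences from 2.45 to 5.09 after fasting, from 2.70 to 4.04 after refeeding, and from 0.20 to 1.96 for refeeding in Cont. Ddit3, which encodes CHOP, differed by 2.09 after fasting and 3.60 after refeeding. Atf4 itself, which the list includes, differed by 0.61 and 0.51. Other list genes were lower in both pairs, among them Shmt2 (-0.80 and -0.57) and Vldlr (-0.60 and -0.93). Fgf21 and Gdf15 differed by 2.58 and 1.24 in the fasted and by -0.67 and 0.28 in the refed pair. For refeeding, 3 of 16 usable list genes were at least 2-fold higher and 0 lower in Cont (median 0.18), where Fgf21 differed by 1.47. These were Psat1 (at least 2.32-fold), Asns (1.60, SE 0.26) and Atf3 (1.44, SE 0.25). In Drp1LiKO 1 of 19 was higher, Asns (1.47, SE 0.20), and 1 was lower, Ddit4 (-2.61, SE 0.20), with a median of 0.20, where Fgf21 and Gdf15 differed by -1.77 and -1.16. Over all genes, 4.50% were higher and 5.87% lower for refeeding in Cont, and 5.62% and 7.17% in Drp1LiKO. The part of the integrated stress response in the Fgf21 and Gdf15 values was not tested.

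Of 20 PPARalpha targets, 9 were at least 2-fold lower in the refed than in the fasted Drp1LiKO liver and 0 higher (median -0.92), while 3 were lower and 0 higher in Cont (median -0.29). Examples in Drp1LiKO were the acyl-CoA thioesterases Acot2 (-3.08, SE 0.23) and Acot1 (-2.63, SE 0.20) and the pyruvate dehydrogenase kinase Pdk4 (-2.10, SE 0.21). In Cont the 3 lower ones were Pdk4 (-1.24, SE 0.24), Ehhadh (-1.04, SE 0.20) and Ppargc1a (-1.02, SE 0.22, with another probe at -0.53). Fgf21 differed by 1.47 for refeeding in Cont and by -1.77 in Drp1LiKO. For genotype, 3 targets were higher and 1 lower after fasting (median 0.08) and 1 was higher and 5 lower after refeeding (median -0.61). Acot2 (2.47), Ehhadh (1.73) and Pdk4 (1.24) were the higher ones after fasting, and Acot1 (-2.38) and Vnn1 (-1.63) were among those lower after refeeding. Ppara itself, which the list includes, was the 1 lower after fasting (-1.06) and among the 5 lower after refeeding (-1.39). For refeeding, 4.50% of all genes were higher and 5.87% lower in Cont, and 5.62% and 7.17% in Drp1LiKO. For genotype, 8.23% were higher and 5.30% lower after fasting, and 8.25% and 6.50% after refeeding. The part of PPARalpha in the Fgf21 values was not tested.

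Of 10 ChREBP targets, 1 was at least 2-fold higher after refeeding in Cont, G6pc (1.38, SE 0.20), beside the 1.47 of Fgf21 in the same livers. In Drp1LiKO 1 was higher, the triokinase gene Tkfc (1.19, SE 0.20). The list medians for refeeding were 0.12 in Cont and -0.07 in Drp1LiKO, with 7 genes higher and 3 lower in Cont and 4 and 6 in Drp1LiKO. Pklr differed by 0.78 and 0.99 for refeeding. Mlxipl, the gene of ChREBP itself, which the list includes, differed by -0.61 and -0.80. In the refed pair G6pc was 3.72-fold lower in Drp1LiKO (-1.90, SE 0.20). There 8 of the 10 targets were on the lower side, with a median of -0.49, and Pklr differed by -0.03. Mlxipl differed by -0.71 in the fasted and -0.89 in the refed pair, with another probe at -0.29 and -0.03. Of the 8 hepatocyte markers, 7 were lower in the same pair, with a median of -0.47. Fgf21 and Inhbe differed by -0.67 and -1.14. For refeeding, 4.50% of all genes were at least 2-fold higher in Cont and 5.62% in Drp1LiKO. The part of ChREBP in the Fgf21 and Inhbe values was not tested.

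**Figure D3:**
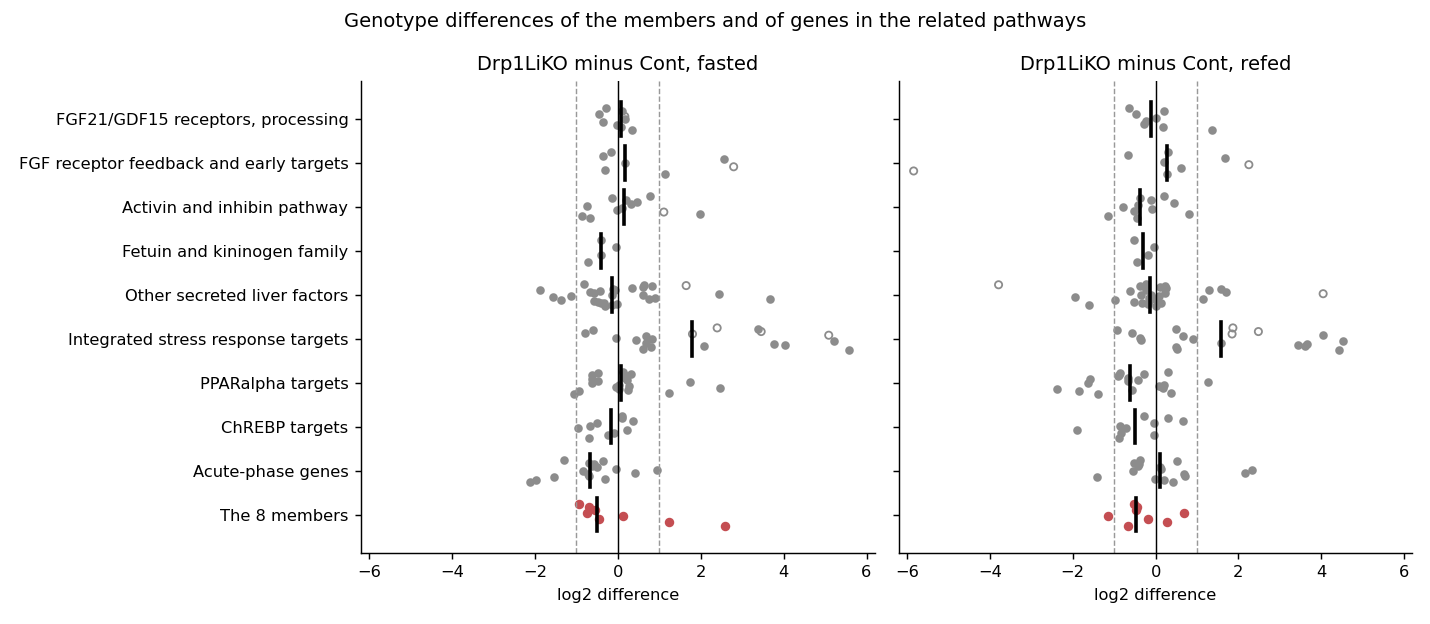
Log2 difference of Drp1LiKO minus Cont (x axis) in fasted (left) and refed (right) livers for the genes of 9 pathway lists (grey) and the 8 hepatokine genes (red), 1 point per gene whose brighter signal was well above background, open where the dimmer one was not, with black bars at list medians and dashed lines at 2-fold. The stress-response median is near 1.80 and 1.59, while the members' medians are -0.51 and -0.46 with Fgf21 and Gdf15 far to the right in the fasted livers alone.

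Among 30 other secreted liver factors, 28 were usable in each comparison, and 3 were at least 2-fold higher and 4 lower in Drp1LiKO after fasting, with 5 higher and 3 lower after refeeding. Of all genes, 8.23% were higher and 5.30% lower after fasting, and 8.25% and 6.50% after refeeding. Igfbp1, an IGF-binding protein that insulin represses, was 12.8-fold higher after fasting (3.68, SE 0.20) and also higher after refeeding (1.15), and it was 21.2-fold lower in the refed than in the fasted Drp1LiKO liver (-4.41, SE 0.20). Its largest signal was thus on the same array as those of Fgf21 and Gdf15. Angptl8, a feeding-induced inhibitor of lipoprotein lipase with its partners, was 8.53-fold higher after refeeding in Cont and 11.8-fold in Drp1LiKO, on the arrays labelled refed. Fgl1 differed by -1.89 after fasting and by 1.29 after refeeding, the signs of Inhba. Gpnmb was 5.38-fold higher in Drp1LiKO after fasting and at least 3.65-fold higher after refeeding, and Hamp2 was 3.84-fold lower after refeeding. Stc2 was well above background on the refed Cont array alone, and Epo on the fasted Drp1LiKO array alone.

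The 2 genes nearest to Inhba belong to the acute phase, the set of plasma proteins that hepatocytes change in inflammation. By Euclidean distance over the 4 centred log2 levels, among 11827 named genes measured on every array, the nearest to Inhba were Orm2 (0.03), Orm1 (0.08) and Camp (0.13). Orm2 differed by -0.73 and 0.68 between genotypes and by 0.05 and 1.46 between feeding states, beside -0.76, 0.69, 0.04 and 1.49 for Inhba. Orm1 and Orm2 are near-identical copies whose probes may share transcripts. Of 16 acute-phase genes, 0 were at least 2-fold higher and 4 lower in Drp1LiKO after fasting, led by Saa1 (-2.11), Saa2 (-1.98) and Saa4 (-1.55). In Drp1LiKO, 7 were higher after refeeding and 0 lower (median 0.77), among them Saa1 (2.31), Saa2 (2.20) and Orm3 (2.15), while 1 was higher in Cont (Saa3, 2.14-fold). In the refed pair Apcs (2.33) and Orm3 (2.16) were higher and Saa4 (-1.42) lower. The Saa genes too are close copies. Over all genes, 8.23% were higher and 5.30% lower in the fasted pair, and 8.25% and 6.50% in the refed pair. For refeeding these shares were 4.50% and 5.87% in Cont, and 5.62% and 7.17% in Drp1LiKO.

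The other neighbours were as follows, the distance covering 4 arrays and describing likeness alone. Fgf21 had no close neighbour, its nearest being Ly9 (0.56), Osbpl3 (0.64) and E2f4 (0.65), with Gdf15 in rank 84 (1.28). Gdf15 was nearest to Bmp6 (0.13), Reps1 (0.19) and Spry1 (0.20). Klb was nearest to Slc12a7 (0.05), Znrf1 (0.06) and Syne2 (0.06), and Inhbe to Atp7a (0.03), Zmynd8 (0.10) and Slc25a25 (0.13). Lect2 was nearest to Ahnak (0.03), Cmc2 (0.03) and Lst1 (0.04), Ahsg to Mup21 (0.03), Tmie (0.04) and Krtap1-4 (0.04), and Fetub to Sucnr1 (0.03), Mrpl34 (0.06) and Coq10b (0.08). Within the 8 genes the closest pair was Lect2 and Ahsg, at 0.22, and the farthest Fgf21 and Inhba, at 2.70.

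**Figure D4:**
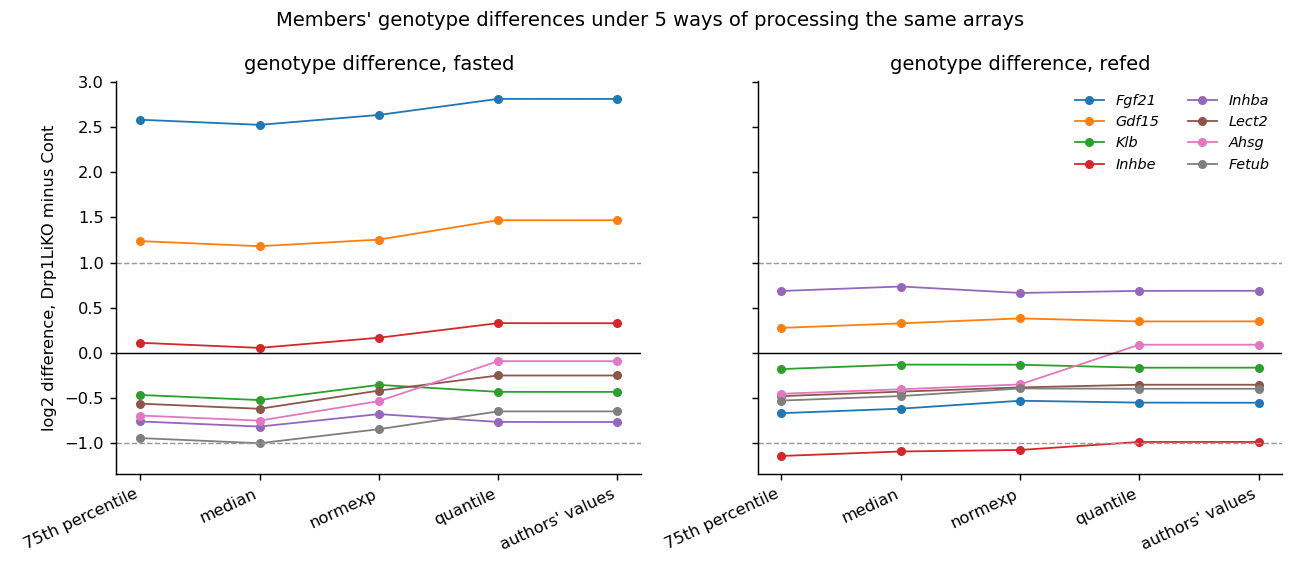
Log2 difference of Drp1LiKO minus Cont (y axis) of the 8 genes in fasted (left) and refed (right) livers under 5 ways of processing (x axis), with dashed lines at 2-fold. Fgf21 (2.52 to 2.81) and Gdf15 (1.18 to 1.47) stay above the line in the fasted pair, Inhbe crosses the line in the refed pair, and Ahsg crosses 0 there.

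Over the scalings and background corrections tried, Fgf21 in the fasted pair stayed between 2.52 and 2.81, and between -0.67 and -0.53 in the refed pair. Its refeeding difference stayed between 1.33 and 1.47 in Cont and between -2.03 and -1.68 in Drp1LiKO. Gdf15 stayed between 1.18 and 1.47 in the fasted pair and between -1.42 and -1.07 for refeeding in Drp1LiKO. The refeeding difference of Inhba in Drp1LiKO stayed between 1.38 and 1.58.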

How the data were processed

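RNA from 4 livers was measured on 1-colour Agilent arrays. Per the file headers, the deposited intensity values are processed signals of Feature Extraction 10.7.1.1 (9.5.1.1 in the submitters' processing notes), background-subtracted within each array, and they are not normalized between arrays. All 4 arrays were on 1 slide in 1 scan. The authors also deposited normalized intensity values whose sorted columns are the same within 0.000318 on the log2 scale, as quantile normalization gives. The labels and the scanner files name another array design, and the labels another RNA kit, than the methods.

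Of 44397 spots per array 43020 were gene spots. Flagged outlier spots were left out, which removed 37 probes, repeated spots were averaged, and log2 signals were set relative to the array's 75th percentile. Probes were renamed by RefSeq accession in GRCm38.p6 (26835 of 29031 matched). A gene was read from its probe well above background on the most arrays, then the brightest. Genotype and feeding terms were fitted with limma 3.58.1 in R 4.3.3 on genes whose signal was well above background on 2 arrays or more (Benjamini-Hochberg adjusted p under 0.05). The fit and the 2-fold rule were also run on simulated arrays with measurement noise and an added genotype change. Those arrays held no variation between animals, so the runs cannot show how the steps act with it. The SE is the one of the scanner's error model, and the number of arrays limits the precision.

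Genes were named as the 8 members, the up to 3 largest 2-fold differences per list and comparison, Atf4, Ddit3, Ppara and Dnm1l, and the 3 genes nearest to each member, and single list genes named beyond this rule, among them Inhbc, Alb, Col1a1, Fgfr4 and Igfbp1 in the refed pair, were chosen after their values were seen. A gene that the rule picks is not reported here. The members and lists were chosen with earlier results of these data known. Alternatives were median scaling, quantile normalization, the authors' normalized values, normexp with an offset of 50, the median over probes, other filters, a 1.5-fold threshold, and limma with an intensity trend or without the other factor. Figures used Python 3.11.15 and matplotlib 3.10.9.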

Additional observations from a re-analysis of the deposited data

Results flagged for a closer look

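For 3 of the 8 genes the arrays of 1 state or genotype went one way and those of the other the opposite way. With 1 array per group, none of these differences was tested. Fgf21 had a genotype difference, Drp1LiKO minus Cont on the log2 scale, of 2.58 in the fasted and -0.67 in the refed livers, and a refeeding difference of 1.47 in Cont and -1.77 in Drp1LiKO. Inhbe had a genotype difference of 0.11 in the fasted and -1.14 in the refed livers, the first within 1 SE of the scanner's model, and a refeeding difference of 0.73 in Cont and -0.52 in Drp1LiKO. Inhba had a genotype difference of -0.76 in the fasted and 0.69 in the refed livers.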

How the results depend on the processing

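Scaling and background correction left the counts of members at 2-fold as given, with 1 exception. The median over probes and the filters could not change them. Each member has 1 probe, and all 8 were well above background on all 4 arrays. In the refed pair the count for genotype was 0 in place of 1 under quantile normalization and 0 in the authors' normalized values, where Inhbe fell just short of 2-fold. At a 1.5-fold threshold the count was 5 in place of 2 for genotype in the fasted pair, 3 in place of 1 in the refed pair and 3 in place of 1 for refeeding in Cont, and 4 in place of 3 in Drp1LiKO. The limma fit called 0 members for either term under every alternative, while its count over all genes for genotype went from 0 to 1216 with genes well above background on all 4 arrays, 496 with normexp, 419 with an intensity trend and 1 without the feeding term, and for feeding from 0 to 15 with the stricter filter. Of the recomputed differences of single members, 168 moved by less than 1 SE of the scanner's model and 32 by more, all 32 under quantile normalization or in the authors' normalized values. Among the 168 are 40 medians over probes, which for genes with 1 probe are the main value itself and could not move. Quantile normalization and the authors' values gave nearly the same numbers, with 16 moved and 24 not moved in each. The sign changed for Ahsg in the refed pair (0.09 against -0.45) and for refeeding in Cont (-0.09 against 0.18), and for the difference of differences of Lect2 (-0.10 against 0.08). For Ahsg the changed values follow from its rank at the top of each array and do not measure its direction. No called value changed sign. No paired analysis was possible because the labels give no replicate numbers and each group has 1 array, and no array could be left out. Signal over background did not limit the members, which were well above it on all 4 arrays.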
